A study of Mus musculus with 4 samples.

Results

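The Cxcl12 axis is described here through 3 genes of the 31053 listed in each library: the chemokine gene Cxcl12 and the genes of its 2 receptors, Cxcr4 and Ackr3. They were taken by symbol for their roles as ligand, signalling receptor and scavenging receptor. Earlier results of these data were known when they were chosen, among them the higher Cxcr4 level in T cell-like cells after deligation, so that contrast is given as values with no test. CXCL12 is a secreted chemokine that binds to heparan sulfate on cell surfaces and matrix and attracts cells that carry CXCR4. CXCR4 signals through inhibitory G proteins to integrin activation and migration, whereas ACKR3 binds the same ligand without G protein signalling, takes it up and degrades it, and so shapes the gradient that CXCR4 reads. In glands and other organs CXCL12 is made mainly by endothelial and mesenchymal cells, and lymphocytes are among the best known CXCR4 carriers.

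The measurements are 4 single-cell RNA libraries (10x Genomics) of the stroma-enriched submandibular gland, a major salivary gland, of female C57BL6/J mice with no transgene or engineered allele named. The 2 deligated libraries came from mice aged 14 weeks whose main ducts had been closed by a metal clip for 14 days and reopened for 5 days. The 2 homeostatic libraries came from mice aged 12 weeks without surgery, so age differed along with the operation. No library came from a gland that was still closed, so closure and reopening cannot be told apart. Below, "rose", "fell" and "after deligation" only compare the deligated with the homeostatic libraries. Every gland was digested with enzymes and depleted of EpCAM-positive epithelial cells, Ter119-positive red cells and dead cells. The labels do not state how many animals gave each library, and the protocol names the sublingual gland as well as the submandibular one.

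Cxcl12 (ENSMUSG00000061353) lies on the plus strand of mouse chromosome 6 from 117168535 to 117181367 on GRCm38. Cxcr4 (ENSMUSG00000045382) lies on the minus strand of chromosome 1 from 128588199 to 128592293, and Ackr3 (ENSMUSG00000044337) on the plus strand of the same chromosome from 90203980 to 90216751. None of the 3 overlaps another annotated gene. The 250 bases before each start site are shown because the axis is described below as a change in RNA level, and they are the stretch where transcription is initiated. They are printed 5′ to 3′ on the gene's own strand from RefSeq on GRCm38.p6, with motif matches in capitals.
Cxcl12, chr6:117168285-117168534, plus strand: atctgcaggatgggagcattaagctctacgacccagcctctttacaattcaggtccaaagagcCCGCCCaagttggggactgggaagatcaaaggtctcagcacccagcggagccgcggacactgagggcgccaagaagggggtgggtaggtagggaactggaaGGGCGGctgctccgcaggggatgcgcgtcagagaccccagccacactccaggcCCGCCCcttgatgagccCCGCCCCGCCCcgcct
Cxcr4, chr1:128592300-128592549, minus strand: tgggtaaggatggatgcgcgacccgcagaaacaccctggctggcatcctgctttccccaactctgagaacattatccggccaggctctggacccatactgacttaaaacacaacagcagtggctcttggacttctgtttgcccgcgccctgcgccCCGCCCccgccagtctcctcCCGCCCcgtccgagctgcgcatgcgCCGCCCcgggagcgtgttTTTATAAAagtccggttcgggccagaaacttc
Ackr3, chr1:90203730-90203979, plus strand: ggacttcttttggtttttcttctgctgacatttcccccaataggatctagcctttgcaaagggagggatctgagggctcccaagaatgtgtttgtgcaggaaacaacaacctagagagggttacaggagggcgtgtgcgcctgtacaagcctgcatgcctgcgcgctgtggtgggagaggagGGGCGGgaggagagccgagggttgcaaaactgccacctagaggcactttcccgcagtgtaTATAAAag
The GC content of these windows was 64.4% for Cxcl12, 61.2% for Cxcr4 and 54.0% for Ackr3. The GC box GGGCGG, searched on both strands as every motif here, matched 5 times in the Cxcl12 window, 3 times in the Cxcr4 window and 1 time in the Ackr3 window, and 32.74% of all 32851 windows of this length held it. The TATA box TATAAA was present upstream of Cxcr4, with 2 overlapping matches on opposite strands, and 1 time upstream of Ackr3, against 12.37% of all windows, and these letters were not in the Cxcl12 window. Neither the hypoxia element core ACGTG (16.57% of all windows) nor the AP-1 motif TGANTCA (6.749% of all windows) matched in any of the 3 windows.

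The libraries held 4725 and 8713 barcodes (deligated) and 12854 and 13266 barcodes (homeostatic), with 35662241 to 53898793 UMIs each (a UMI is a tag that marks 1 captured RNA molecule). After filtering, 33695 cells fell into 30 clusters, which were grouped into classes by marker genes and are called by resemblance. Between 16 and 54 barcode sequences were shared with another library. Libraries of the 2 groups stood apart: endothelial-like cells numbered 1880 and 3116 (deligated) and 3531 and 3464 (homeostatic), but epithelial-like cells 50 and 132 against 3091 and 3345, and macrophage-like cells 38 and 103 against 1074 and 1079. Most clusters within a class also held mainly 1 group, so classes and not clusters were compared: cluster 0 held 83.87% of deligated endothelial-like cells and cluster 1 held 57.37% of homeostatic ones, and fibroblast-like cells were 99.91% in cluster 12 (deligated) and 95.42% in cluster 18 (homeostatic). The files of the 2 groups were also written by different software versions, and the UMIs of genes whose introns exceed 100 kb were 9.911% and 9.609% of deligated against 15.54% and 15.41% of the homeostatic endothelial total. Software version, age and surgery cannot be told apart. The 3 genes have 4.66 kb (Cxcl12), 2.29 kb (Cxcr4) and 9.42 kb (Ackr3) of intron.

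Over all retained cells Cxcl12 was higher in both deligated libraries, at 1434 and 1012 CPM (counts scaled to the library total) against 445.4 and 479.0 CPM in the homeostatic libraries. Cxcr4 stood at 12.37 and 12.29 CPM against 3.37 and 3.159 CPM, and Ackr3 at 41.93 and 75.13 CPM against 75.38 and 71.21 CPM. These totals mix cell classes whose shares differ between the groups, so the levels are given within classes below. The groups did not overlap for Cxcl12 and Cxcr4, whereas for Ackr3 the first deligated library lay low and the second within the homeostatic range. For 2 against 2 libraries a two-sided exact permutation p is at least 0.333, so a lack of overlap, here and below, says little by itself. The share of all genes without overlap was not computed.

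**Figure D1:**
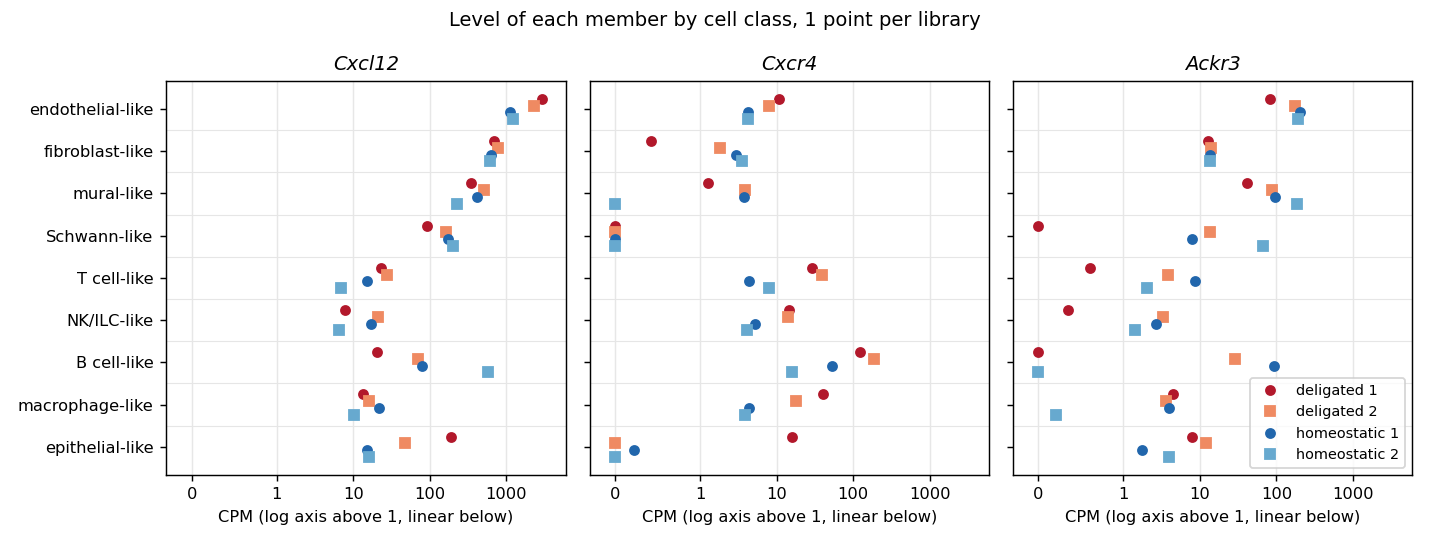
Levels of Cxcl12, Cxcr4 and Ackr3 (CPM of the class sum, log axis as labelled) in each cell class, with 1 point per library and colours for the deligated and homeostatic groups. Cxcl12 is highest in endothelial-like cells, where both deligated points (2896 and 2290 CPM) lie above both homeostatic points (1133 and 1221 CPM).

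Endothelial-like cells, the lining of blood vessels, were the main source of Cxcl12 RNA in these stroma-enriched suspensions. Its level there was higher in the deligated libraries. They gave 90.2% and 82.94% of all Cxcl12 UMIs in the deligated libraries and 87.22% and 88.42% in the homeostatic libraries. Their level was 2896 and 2290 CPM (deligated, 42232 and 39096 UMIs) against 1133 and 1221 CPM (homeostatic, 16712 and 17428 UMIs). The groups did not overlap, with means of 2593 ± 428.5 CPM and 1177 ± 62.2 CPM (SD, n = 2 libraries each). The fitted log2 change was 1.17 (SE 0.16, 95% interval 0.79 to 1.55), a 2.24-fold higher level, with an adjusted p of 0.00254 in edgeR's quasi-likelihood test over 13175 genes. Of those genes 35.2% were called, 13% higher and 22.2% lower, and 2.07% had a larger positive change than Cxcl12. With 2 libraries in each group an exact permutation p is at least 0.333 (two-sided), so none was computed.

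Detection followed the level. A Cxcl12 UMI was seen in 87.5% and 84.66% of deligated and in 76.75% and 77.45% of homeostatic endothelial-like cells, at median depths of 5913 and 4440.5 against 3677 and 3669 UMIs. After each cell was thinned to 1000 UMIs the shares were 65.29% and 60.77% against 49.58% and 50.5%. Epithelial-like cells, which are not known as a CXCL12 source, held a UMI in 1.553% and 1.256% of homeostatic cells at median depths of 965 and 950 UMIs. The 50 and 132 deligated epithelial-like cells had shares of 6.0% and 4.545% at median depths of 1204 and 938 UMIs. Their class sum was also higher after deligation (189.6 and 47.34 CPM against 15.18 and 16.06 CPM). It rested on 48 and 8 UMIs in those few cells, so it does not describe the class at large. The part of such RNA in the endothelial values was not tested.

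Within the endothelium the level differed between arterial-type and venous-type cells. The remaining endothelial-like cells, of sub-clusters that no marker list named in both groups, are no vessel type. Arterial-type cells, called from markers such as Gja5, Bmx and Sox17, held 5332 and 4962 CPM (deligated) against 2794 and 3169 CPM (homeostatic). The remaining endothelial-like cells held 2829 and 2020 against 909.9 and 982.7 CPM, and venous-type cells, called from markers such as Selp and Vwf, 609.1 and 558.3 against 292.5 and 331.7 CPM. In each of the 4 libraries the order was arterial-type, remaining, venous-type, and in each of these sub-groups both deligated values exceeded both homeostatic ones. Arterial-type cells made up 13.4% and 11.42% of deligated and 13.37% and 11.63% of homeostatic endothelial-like cells, so their share overlapped between groups. Venous-type cells were 9.415% in the first deligated library and 2.76% to 3.483% in the others. Sub-groups of every class were clustered separately in the deligated and homeostatic cells with these genes included, and are a description with no test.

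**Figure D2:**
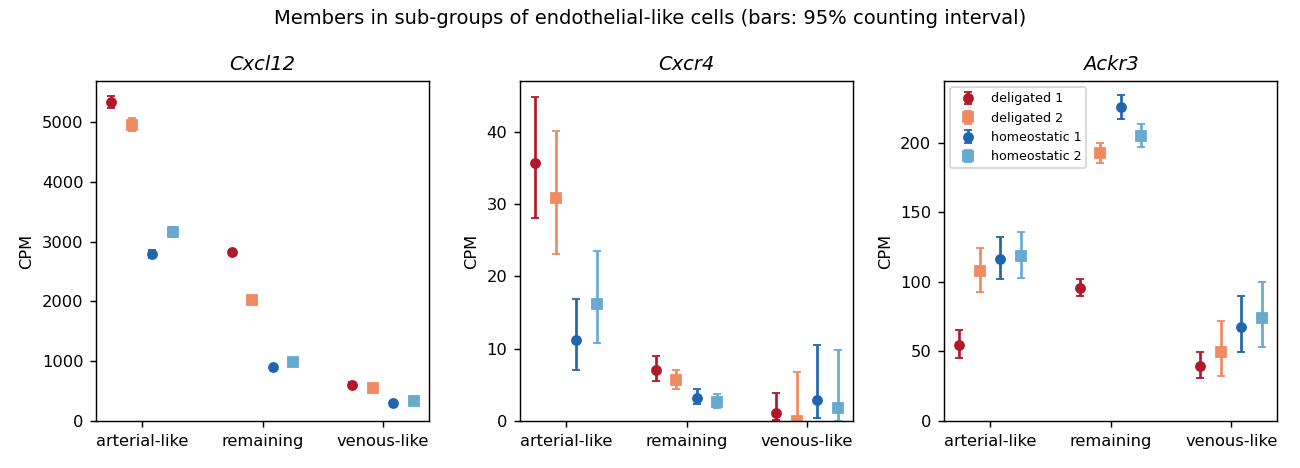
Levels of the 3 genes (CPM) in arterial-type, remaining and venous-type endothelial-like cells, with 1 point per library. Cxcl12 and Cxcr4 are highest in arterial-type cells (Cxcr4 at 35.72, 30.79, 11.15 and 16.22 CPM), whereas Ackr3 is highest in the remaining endothelial-like cells.

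Fibroblast-like cells, the matrix-producing cells between the acini, were the next source. They held 692.4 and 778.0 CPM of Cxcl12 (deligated) against 628.2 and 622.1 CPM (homeostatic), and gave 7.01% and 10.97% against 5.636% and 5.398% of its UMIs. Nearly all of them carried the RNA, with a UMI in 96.02% and 95.04% against 91.97% and 90.51% of cells. The groups did not overlap, but the log2 difference of 0.29 (SE 0.12, 95% interval 0.04 to 0.55) had an adjusted p of 0.093 in edgeR's fit, where 25.5% of 11403 genes were called (8.3% higher and 17.2% lower). The difference was 0.09 with the intron-length trend removed and passed the threshold with doublets kept (0.46), without deligated library 1 (0.35) and without deligated library 2 (0.27). With 1 deligated library left, the spread comes from the homeostatic pair alone and the lone library is assumed to vary like that pair, which differed less (chi-square per degree of freedom over genes 1.632, against 25.56 for the deligated pair), so passing there is no sign of stability. Adventitial-type fibroblast-like cells, called from a marker list, held 685.4 and 773.3 against 636.3 and 598.7 CPM, near the level of the class. The change of Cxcl12 was smaller in fibroblast-like than in endothelial-like cells by 0.76 on the log2 scale (difference -0.76, SE 0.17, 95% interval -1.14 to -0.38, adjusted p = 0.0278 for the class by group term in edgeR, where 6.11% of genes were called). That call was lost without homeostatic library 1 (-0.70) and without homeostatic library 2 (-0.83), and, with doublets kept, at -0.63.

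Mural-like cells, the pericytes and smooth muscle around vessels, held 349.5 and 505.7 CPM of Cxcl12 (deligated) against 411.9 and 227.3 CPM (homeostatic), with overlapping groups. The log2 difference was 0.39 (SE 0.24, 95% interval -0.12 to 0.90, adjusted p = 0.413 in edgeR, 7.01% of 9733 genes called, 1.2% higher and 5.8% lower), and it differed from that in fibroblast-like cells by 0.03 (difference -0.03, 95% interval -0.52 to 0.46, -0.43 to 0.32 as each library was left out, adjusted p = 0.972 with all libraries in edgeR, where 0.355% of genes were called). The size rested on single libraries: it was 0.075 without homeostatic library 2, 0.17 without deligated library 2, 0.61 without deligated library 1 and 0.82 without homeostatic library 1, none past the threshold. Within the class, pericytes, with more Cxcl12 and less Ackr3 than the other sub-groups in each library, made up 48.42%, 48.31%, 50.0% and 19.7% of cells in the order deligated 1, deligated 2, homeostatic 1, homeostatic 2, so that the last library, with the lowest Cxcl12 and the highest Ackr3 level of the class, also had the fewest pericytes. The part of this mix in the mural-like values was not tested. In the same order, pericytes held 547.2, 863.3, 777.9 and 431.8 CPM of Cxcl12 and smooth muscle-type cells 112.2, 205.0, 152.5 and 125.9 CPM. Pericytes therefore lay above smooth muscle-type cells in each library. Schwann-like cells, the glia of peripheral nerve, held 93.6 to 203.2 CPM over the 4 libraries.

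Among these 4 classes the order of Cxcl12 levels was endothelial-like, fibroblast-like, mural-like and Schwann-like cells in each library, and the values of neighbours in that order did not overlap over the 4 libraries. Lymphatic endothelial-like cells, 5 to 10 in a library, held 3 to 15 UMIs (69.04 to 172.4 CPM), a range that overlapped that of Schwann-like cells. B cell-like cells held 20.33, 71.39, 80.42 and 575.3 CPM, where the highest value came from a single cell of homeostatic library 2. Levels in the other leukocyte classes were low: 23.19, 28.04, 15.05 and 7.02 CPM in the T cell class, 7.749, 21.41, 17.01 and 6.618 CPM in cells resembling natural killer and other innate lymphoid cells (NK/innate lymphoid-like), and 10.3 to 21.7 CPM in macrophage-like cells. The T cell-like level was 0.575% to 1.33% of the endothelial level of the same library, and the summed level of the 10 endothelial markers in T cell-like cells was 1.09% to 3.10% of theirs. In edgeR's fit T cell-like cells had a log2 change of 1.35 (SE 0.36, 95% interval 0.52 to 2.18, adjusted p = 0.0339, 19.1% of 9775 genes called, 4.72% higher) on 76, 118, 14 and 7 UMIs, and NK/innate lymphoid-like cells a difference of 0.49 (SE 0.47, 95% interval -0.60 to 1.59, adjusted p = 0.43, 43.1% of 11615 genes called). The NK/innate lymphoid difference turned on single choices: it was -0.45 without deligated library 2, -0.02 without homeostatic library 2 and 0.93 without deligated library 1, and it passed the threshold without homeostatic library 1 (1.26) and with doublets kept (1.80). In both lymphocyte classes Cxcl12, as a share of its endothelial level, was lower in each library than the endothelial marker sum as a share of its own. In macrophage-like cells it was lower in the deligated libraries (0.4606% and 0.7131% against 0.9733% and 2.244%) and higher in the homeostatic ones (1.913% and 0.8403% against 1.771% and 0.6429%). Most of the homeostatic UMIs in the NK/innate lymphoid class, 134 of 163, came from 108 cells of sub-clusters whose leading genes are endothelial (Flt1, Plvap) or macrophage (C1qa, C1qb) genes. Outside such sub-clusters the tissue-resident-type cells, called from a marker list, held 10.53 and 17.83 against 2.706 and 0 CPM of Cxcl12 (4, 15, 4 and 0 UMIs) and the remaining cells 5.712 and 19.63 against 2.725 and 2.384 CPM (30, 232, 13 and 12 UMIs), so the groups did not overlap there as they did in the whole class. The 10 fibroblast markers also summed to more after deligation, at 47.6 and 150.9 against 10.75 and 16.05 CPM in the T cell class (0, 0, 6 and 5 of the 10 at 0) and at 44.56 and 127.6 against 6.599 and 7.322 CPM in NK/innate lymphoid-like cells (0, 0, 2 and 2 at 0). The part of free, endothelial or fibroblast RNA in these values was not tested. The T cell-like call was lost with DESeq2 (1.36), with Leiden resolution 2.0 (0.75), with the intron-length trend removed (1.14) and without homeostatic library 2.

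**Figure D3:**
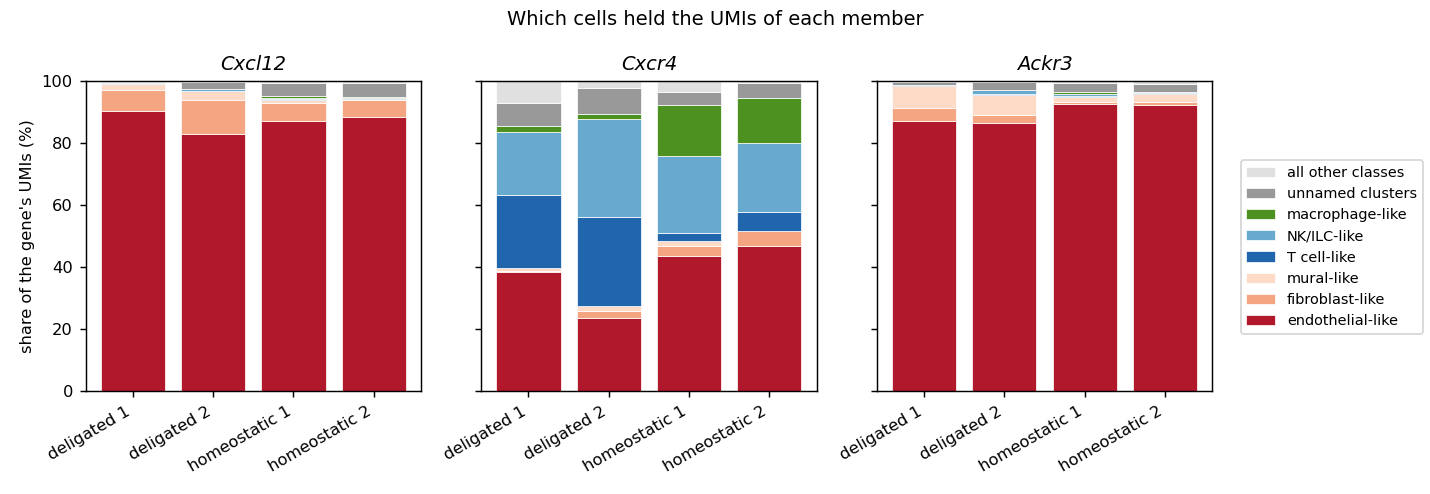
Share of each gene's UMIs (percent) that came from each cell class, with 1 stacked bar per library. Endothelial-like cells give 82.94% to 90.2% of Cxcl12 and 86.36% to 92.66% of Ackr3 UMIs, while Cxcr4 UMIs are spread over endothelial-like, T cell-like and NK/innate lymphoid-like cells and, in the homeostatic libraries, macrophage-like cells.

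Cxcr4, the signalling receptor, was sparse. All retained cells of a library held 404, 572, 145 and 130 Cxcr4 UMIs, so the values below rest on few molecules per class. Endothelial-like cells gave 38.37% and 23.6% (deligated) and 43.45% and 46.92% (homeostatic) of them, NK/innate lymphoid-like cells 20.3% and 31.47% against 24.83% and 22.31%, and T cell-like cells 23.51% and 28.85% against 2.759% and 6.154%. T cell-like cells numbered 594 and 797 in the deligated and 158 and 164 in the homeostatic libraries. Both their number and their level thus enter those shares. Under the stricter cell filter the mean deligated T cell-like share was 15.24% in place of 26.18%. A cluster led by Tcrg-C2, Ly6c2, Trgv2 and Cd3e then stayed unnamed, because it carried as many NK/innate lymphoid as T cell markers (7 and 7). It held 25.25% and 66.0% of the deligated T cell-like cells (150 and 526) but 3 and 0 of the homeostatic ones, so the class is not made of the same cells in both groups. In these cells Cxcr4 was at 29.24 and 26.99 CPM and Cxcl12 at 7.31 and 20.68 CPM (deligated). The T cell-like cells of another cluster, led by Cd8b1, Themis and Cd8a, held 24.25 and 79.24 against 4.988 and 8.409 CPM of Cxcr4 (32, 69, 4 and 7 UMIs) and 31.07 and 36.75 against 13.72 and 6.006 CPM of Cxcl12 (41, 32, 11 and 5 UMIs). Neither gene overlapped between the groups there, and in the T cell-like class of that filter, which lacks the unnamed cluster, the log2 difference was 2.96 for Cxcr4 and 1.78 for Cxcl12.

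T cell-like cells held 28.99 and 39.2 CPM of Cxcr4 (95 and 165 UMIs) in the deligated and 4.3 and 8.023 CPM (4 and 8 UMIs) in the homeostatic libraries. The group means were 34.09 ± 7.22 and 6.162 ± 2.633 CPM (SD, n = 2 libraries each), the groups did not overlap, and the fitted fold was 5.95 (log2 2.57, SE 0.37). A UMI was seen in 12.63% and 13.43% of deligated and in 2.532% and 3.659% of homeostatic T cell-like cells, at median depths of 5126 and 4961 against 5367 and 5135.5 UMIs, so the deligated cells were not the deeper ones. The counting intervals of the 4 levels (exact Poisson, 95%, counting error only) were 23.45 to 35.44 and 33.45 to 45.66 CPM against 1.172 to 11.01 and 3.464 to 15.81 CPM. Fibroblast-like cells, which are not known for CXCR4, held a UMI in 0.5682% to 1.976% of cells at median depths of 6650 to 13195 UMIs, and the homeostatic T cell-like shares lie only slightly above that.

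Cxcr4 was found in both T cell-like clusters. Cluster 6, led by Cd8b1, Cd8a and Trac, held 28.73 and 38.56 CPM (deligated) against 4.693 and 8.083 CPM (homeostatic). Cluster 23, led by Cd163l1, Il17a, Blk and Tcrg-V6, which are typical of gamma delta T cells, held 29.7 and 44.94 CPM in the deligated libraries. Its 13 and 24 homeostatic cells held 0 and 1 UMIs, and a count of 0 allows up to 38.58 CPM there (3 counts), so the groups cannot be placed against each other in this cluster. Cells with a Cd8a or Cd8b1 UMI and none of Cd4 held 19.9 and 64.57 against 11.2 and 13.1 CPM (23, 65, 4 and 5 UMIs), and cells with a Cd4 UMI and none of Cd8a or Cd8b1 29.85 and 63.84 CPM on 7 and 12 UMIs. The homeostatic cells of that gate held 0 and 1 UMIs, and a count of 0 allows up to 33.79 CPM there (3 counts). The Cd8 gate did not overlap between groups, although its 2 deligated libraries lay far apart, and the Cd4 gate was too shallow to place its homeostatic level.

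NK/innate lymphoid-like cells, cytotoxic and cytokine-producing lymphocytes without rearranged antigen receptors, also had more Cxcr4 after deligation. Their level was 14.44 and 13.91 CPM (82 and 180 UMIs) against 5.279 and 4.084 CPM (36 and 29 UMIs), with means of 14.18 ± 0.375 and 4.681 ± 0.845 CPM (SD, n = 2 each). The log2 change of 1.68 (SE 0.20, 95% interval 1.22 to 2.15) had an adjusted p of 0.000417 in edgeR's test, and 0.53% of genes in the class had a larger positive change, where 16.5% were called higher. A UMI was seen in 7.424% and 5.579% of deligated and 3.06% and 2.174% of homeostatic cells, at median depths of 5957 and 5509 against 6268 and 6195 UMIs.

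The deligated NK/innate lymphoid-like cells fell into 2 clusters that differed in Cxcr4. Cluster 16, with Eomes and Ccr2 among its leading genes, held 35.55 and 52.79 CPM (66 and 122 UMIs in 264 and 384 cells), whereas cluster 3, led by Tnni1, Gzmb and Itgae, held 4.216 and 5.459 CPM. Cluster 3 made up 78.23% of the deligated cells of the class, and its values overlapped those of cluster 4, which held 99.23% of the homeostatic cells at 5.299 and 4.109 CPM. Clusters were built with all genes, so these values describe them and are no test. When the class was clustered again within each group, the tissue-resident-type cells held 23.69 and 53.5 CPM of Cxcr4 in the deligated libraries (9 and 45 UMIs in 65 and 148 cells) and 2.706 and 1.792 CPM in the homeostatic ones (4 and 3 UMIs in 222 and 229 cells). Their deligated sub-cluster was led by Krt83, Il7r and Tcrg-C4, whereas 289 of the homeostatic cells lay in a sub-cluster with other leading genes, so the 2 groups may not hold the same cells. The remaining cells held 13.9 and 11.25 against 6.288 and 5.164 CPM.

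Endothelial-like cells held 10.63 and 7.909 CPM of Cxcr4 (155 and 135 UMIs) in the deligated and 4.273 and 4.274 CPM (63 and 61 UMIs) in the homeostatic libraries. The groups did not overlap, and the log2 change of 1.14 (SE 0.22, 95% interval 0.59 to 1.68) had an adjusted p of 0.0108 in edgeR's test. That call was lost without homeostatic library 1 (1.12) or homeostatic library 2 (1.15). Arterial-type cells carried the highest values, 35.72 and 30.79 CPM (75 and 54 UMIs) against 11.15 and 16.22 CPM (22 and 28 UMIs), with a UMI in 22.62% and 11.24% against 4.237% and 5.707% of cells. The remaining endothelial-like cells held 7.101 and 5.62 against 3.227 and 2.672 CPM, and venous-type cells 2, 0, 2 and 1 UMIs. In the homeostatic libraries the remaining cells had a UMI in 1.124% and 1.051%, at median depths of 3652 and 3618 UMIs, and fibroblast-like cells in 1.205% and 1.976% at 6787 and 6650 UMIs. After thinning to 1000 UMIs these shares were 0.2065% and 0.3074% against 0.4065% and 0%, on too few cells to order them. The change in NK/innate lymphoid-like cells differed from that in endothelial-like cells by 0.55 on the log2 scale (SE 0.26, 95% interval -0.06 to 1.17, adjusted p = 0.234 in edgeR, where 10.6% of genes were called).

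**Figure D4:**
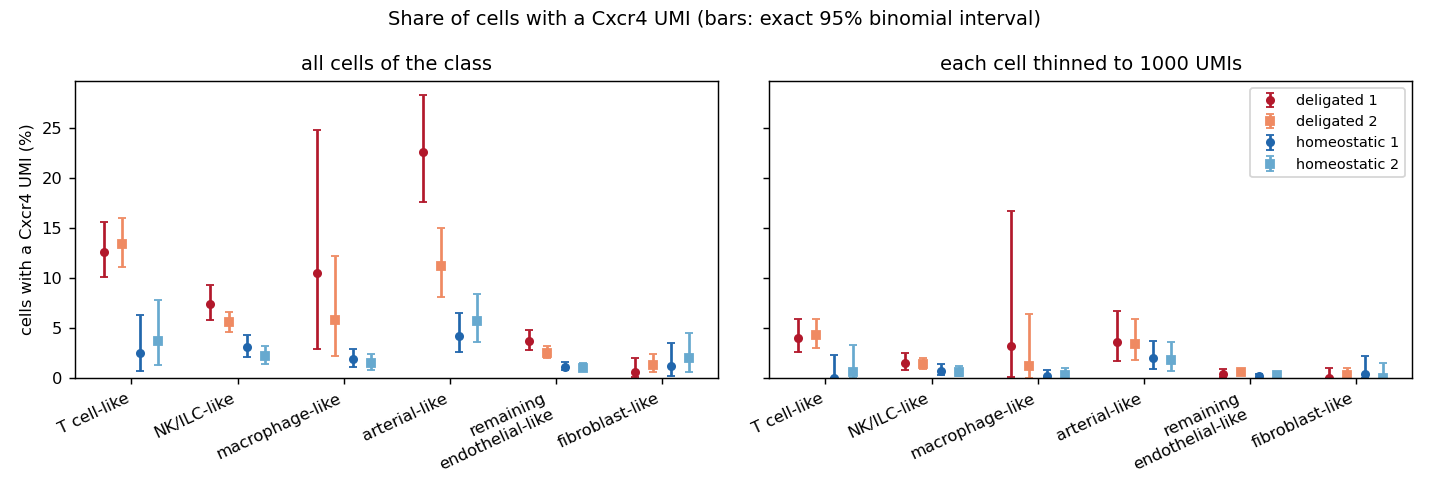
Percentage of cells with at least 1 Cxcr4 UMI by cell class and library, over all cells and after thinning each cell to 1000 UMIs. Deligated T cell-like cells stand at 12.63% and 13.43% against 2.532% and 3.659% over all cells, and thinning leaves 4.04% and 4.266% in the deligated libraries.

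Other leukocytes held Cxcr4 on few molecules and were not tested. B cell-like cells, which numbered 57, 19, 14 and 18, held 24 and 13 UMIs (122 and 185.6 CPM) against 4 and 1 UMIs (53.61 and 15.98 CPM). Macrophage-like cells held 9 and 10 UMIs (40.01 and 18.14 CPM) against 24 and 19 UMIs (4.335 and 3.823 CPM), in a class whose 6 erythroid markers summed to 24580 to 125900 CPM. Fibroblast-like cells held 2, 12, 5 and 6 UMIs and mural-like cells 3, 10, 2 and 0 UMIs, and neither class passed the filter on low counts. No Cxcr4 UMI was seen in Schwann-like cells, where a count of 0 allows 10.18 to 50.81 CPM, or in lymphatic endothelial-like cells, where it allows 32.85 to 126.0 CPM.

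Early response genes, a list of 18 genes such as Fos, Jun and Dusp1 that respond to tissue dissociation as well as to stimulation in the animal, moved with Cxcl12 and Cxcr4. In edgeR's fits 15 of 18 were higher after deligation in endothelial-like cells, 12 of 18 in T cell-like cells and 13 of 18 in NK/innate lymphoid-like cells, where Atf3 was lower. Of all genes, 13%, 4.72% and 16.5% were called higher in these classes. Their summed level in endothelial-like cells was 7025 and 8899 against 4554 and 4337 CPM. The same sum was 5697 and 6437 against 3078 and 3276 CPM in the T cell class, and in the NK/innate lymphoid class 5501 and 6412 against 3796 and 3600 CPM. In fibroblast-like cells 10 of 18 and in mural-like cells 9 of 17 were higher, beside 8.3% and 1.2% of all genes. The summed level of 10 glucocorticoid-responsive genes in T cell-like cells was 897 and 912 against 518 and 443 CPM, 4 of them higher and 1 lower. It was 2195 and 2585 against 1691 and 1635 CPM in endothelial-like cells (6 higher and 3 lower) and 661.2 and 690.3 against 426.1 and 398.4 CPM in NK/innate lymphoid-like cells (4 higher and 3 lower). Salivary secretory genes, which none of these classes is known to express, moved the other way: their sum was 32.44 and 64.03 against 1366 and 1355 CPM in endothelial-like cells (8 of 9 lower), 21.97 and 50.13 against 954.7 and 1393 CPM in the T cell class (5 of 5 lower) and 42.27 and 64.77 against 1195 and 1182 CPM in NK/innate lymphoid-like cells (8 of 9 lower). Of all genes, 22.2%, 14.3% and 26.6% were called lower in these classes. The part of these lists in the Cxcl12 and Cxcr4 values was not tested.

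Ackr3, the scavenging receptor, was also mainly endothelial, and the first deligated library stood below the other 3. Endothelial-like cells gave 87.07% and 86.36% of Ackr3 UMIs in the deligated and 92.66% and 92.35% in the homeostatic libraries. Their level was 81.74 and 177.0 CPM (1192 and 3021 UMIs) against 203.8 and 189.6 CPM (3005 and 2706 UMIs). The log2 difference of -0.60 (SE 0.29, 95% interval -1.31 to 0.12) had an adjusted p of 0.164 in edgeR's test. It was -0.18 without deligated library 1 and -1.18 without deligated library 2, so its size rested on which deligated library was kept. Both values passed the threshold, but the spread then comes from the homeostatic pair alone, which differed less than the deligated pair (chi-square per degree of freedom 3.253 against 42.99), and the lone library is assumed to vary like it. With the replicate number as a block, over all libraries, the difference was -0.68 and passed the threshold. Within the endothelium the order differed from that of the ligand. The remaining cells held 95.77 and 192.7 against 225.8 and 205.3 CPM, arterial-type cells 54.77 and 107.7 against 116.5 and 118.8 CPM and venous-type cells 39.26 and 49.42 against 67.27 and 73.71 CPM. Arterial-type cells, which had the most Cxcl12 and Cxcr4, lay between the remaining and the venous-type cells in Ackr3 in each library. In the whole class and in each of these sub-groups both deligated values lay below both homeostatic ones. The sub-groups were not tested.

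Mural-like cells held 41.17 and 88.83 CPM of Ackr3 (96 and 228 UMIs) against 95.04 and 184.6 CPM (51 and 82 UMIs). The groups did not overlap, and the log2 difference of -1.13 (SE 0.35, 95% interval -1.87 to -0.38) had an adjusted p of 0.0748 in edgeR's test. Its size and call depended on single libraries: it was -0.53 without homeostatic library 2 and -0.70 without deligated library 1, short of the threshold, and -1.60 without homeostatic library 1 and -1.71 without deligated library 2, past it. It also passed with the replicate number as a block (-1.16), with no filter on low counts (-1.08) and with thinned sums (-1.32). Smooth muscle-type cells held 42.4 and 78.49 against 99.7 and 177.7 CPM, whereas pericytes held 36.94 and 50.01 against 15.45 and 16.61 CPM on 32, 46, 3 and 1 UMIs. The remaining mural-like cells, of sub-clusters that no marker list named, held 44.28 and 139.5 against 180.3 and 228.9 CPM (24, 74, 31 and 57 UMIs), and Ackr3 is among the leading genes of 1 of their deligated sub-clusters. Pericytes thus stood higher and both other sub-groups lower in the deligated libraries, which was not tested. Fibroblast-like cells held 12.66, 13.84, 13.38 and 13.45 CPM, a log2 difference of 0.05 (SE 0.24, 95% interval -0.50 to 0.59, adjusted p = 0.914 in edgeR). It differed from that of endothelial-like cells by 0.72 (SE 0.33, 95% interval -0.0017 to 1.44, adjusted p = 0.232 in edgeR). This difference between classes was 0.34 to 1.29 as each library was left out, and it passed with no filter on low counts (0.79). With doublets kept the fibroblast-like difference was -2.57 and that from endothelial-like cells -1.95, both past the threshold, and fibroblast-like cells gave 6.258% of homeostatic Ackr3 UMIs in place of 0.7471%. Adventitial-type fibroblast-like cells held 38.93, 56.13, 24.79 and 97.09 CPM, above the remaining fibroblast-like cells at 5.402, 10.48, 11.44 and 3.329 CPM in each library. Ackr3 is among the leading genes of their homeostatic sub-cluster, so this is a description.

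Lymphocytes and macrophage-like cells held little Ackr3. NK/innate lymphoid-like cells held 2, 42, 18 and 10 UMIs (0.352 to 3.246 CPM), a log2 difference of 0.16 (SE 0.69, adjusted p = 0.865 in edgeR), and T cell-like cells 0.61 to 8.60 CPM, under the filter. The NK/innate lymphoid difference changed direction under 4 alternatives and ran from -2.31 to 0.75 as each library was left out. Macrophage-like cells held 0.2 to 4.4 CPM. These levels are far below those of endothelial-like cells in the same libraries. B cell-like cells held 0, 2, 7 and 0 UMIs, and the 7 UMIs in homeostatic library 1 gave a CPM that was 46.04% of the endothelial one, beside an endothelial marker sum of 30.74% of that in endothelial-like cells.

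**Figure D5:**
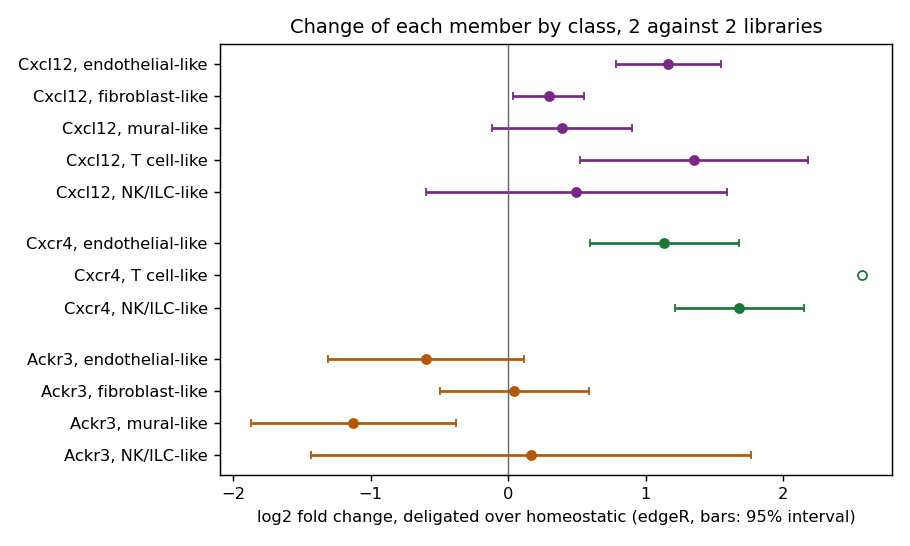
Log2 change, deligated against homeostatic, of each member in each class, with 95% intervals from edgeR (points above 0 are higher after deligation). Cxcl12 and Cxcr4 lie above 0 in endothelial-like cells (1.17 and 1.14), Ackr3 lies at -0.60 there with an interval that spans 0, and the open point for Cxcr4 in T cell-like cells is a description without an interval.

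Cxcl12 and Ackr3 RNA were found in the same endothelial-like cells about as often as their separate shares give. After thinning to 1000 UMIs, Cxcl12 and Ackr3 were seen together in 5.32%, 9.572%, 7.604% and 8.304% of cells, where the product of the 2 shares was 5.052%, 9.563%, 8.067% and 8.048%. Cxcl12 and Cxcr4 were seen together in 0.752%, 0.649%, 0.258% and 0.350%, where the product was 0.526%, 0.532%, 0.213% and 0.235%. The second pair lay above the product in each library, on few cells and in sparse counts, and is a description.

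Of the other ligands and competitors, Cxcl14, a chemokine reported to bind CXCR4, and Hmgb1, a nuclear protein that can pair with CXCL12, rose in endothelial-like cells (2 of 6 tested, list median 0.25 against 0.00 for all genes), beside 13% of all genes called higher. Cxcl14 was at 4.252 and 16.46 against 1.424 and 1.401 CPM (log2 2.88, SE 0.65). It also rose in T cell-like cells, with Hmgb1 (2 of 4), and in NK/innate lymphoid-like cells, with Hmgb1 and Cxcl10 (3 of 4), and the 10 fibroblast markers moved with it: their sum in endothelial-like cells was 46.08 and 131.2 against 13.16 and 14.5 CPM, with at most 1 of the 10 at 0 in a library. Its part in the Cxcl14 values was not tested. In fibroblast-like cells Mif, another CXCR4 ligand, was the 1 of 6 that rose (148.7 and 162.2 against 97.72 and 115.8 CPM, log2 0.60, SE 0.14). In mural-like cells 0 of 2 passed. Of all genes, 4.72% were called higher in the T cell class, 16.5% in the NK/innate lymphoid class, 1.2% in mural-like cells and 8.3% in fibroblast-like cells.

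Among the genes that cut, present or co-bind the ligand, 4 of 9 rose in endothelial-like cells, Hspg2, Sdc2, Mmp2 and Mmp14, and Cd44 fell (median 0.41), beside 13% of all genes called higher and 22.2% lower. Hspg2, which encodes the heparan sulfate carrier perlecan, stood at 729.0 and 729.2 against 537.8 and 519.7 CPM (log2 0.49, SE 0.09). Mmp2, a protease that inactivates CXCL12, had the largest rise there (2.55, SE 0.51), at 0.54 to 5.976 CPM beside the fibroblast marker sums given above, which also move with Sdc2 (0.4069 to 1.783 CPM) and Mmp14 (4.747 to 18.58 CPM). It rose in fibroblast-like cells, its main source, from 571.2 and 569.5 to 1028 and 942.1 CPM (log2 0.85, SE 0.12). Sdc1, a surface heparan sulfate carrier, rose in fibroblast-like (2 of 9 with Mmp2) and mural-like cells (1 of 8, Cd44 lower). In T cell-like cells Sdc1 rose and Cd74, a co-receptor for MIF, and Glg1 fell (1 and 2 of 8), and in NK/innate lymphoid-like cells Mmp2 rose and Glg1 and Cd44 fell (1 and 2 of 7). The shares of all genes called higher and lower were 8.3% and 17.2% in fibroblast-like, 1.2% and 5.8% in mural-like, 4.72% and 14.3% in T cell-like and 16.5% and 26.6% in NK/innate lymphoid-like cells.

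The list of G proteins, receptor kinases and arrestins moved in both directions. Gnai2, the inhibitory G protein subunit that CXCR4 couples to, rose in fibroblast-like (log2 0.52, SE 0.12), endothelial-like (0.47, SE 0.09), T cell-like (0.54, SE 0.12) and NK/innate lymphoid-like cells (0.55, SE 0.08). Grk5, a receptor kinase, fell in all 5 tested classes, from 113.2 and 108.0 to 20.02 and 20.86 CPM in endothelial-like cells (log2 -2.42, SE 0.08), and has 199.16 kb of intron. A trend of the change on intron length alone gave -0.88 at that length. In all, 1 rose and 2 fell of 12 in fibroblast-like, 3 and 2 of 12 in endothelial-like, 0 and 1 of 12 in mural-like, 3 and 2 of 10 in T cell-like and 4 and 3 of 10 in NK/innate lymphoid-like cells. Over all genes 8.3% rose and 17.2% fell in the first of these classes, 13% and 22.2% in the second, 1.2% and 5.8% in the third, 4.72% and 14.3% in the fourth and 16.5% and 26.6% in the last. Grk2, the kinase that phosphorylates active chemokine receptors, rose by 0.71 (SE 0.12) in endothelial-like and by 0.83 (SE 0.17) in T cell-like cells, and Arrb2, an arrestin that binds the phosphorylated receptor, by 0.74 (SE 0.11) in NK/innate lymphoid-like cells.

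Of the genes that switch off or recycle the receptor, Rgs1 and Rgs2, which shorten G protein signalling in lymphocytes, rose in T cell-like cells (2 of 13). Rgs1 was at 1060 and 1281 against 429.0 and 392.1 CPM there (log2 1.64, SE 0.13), and Rgs2 at 238.6 and 388.7 against 97.83 and 113.3 CPM (1.69, SE 0.23). In NK/innate lymphoid-like cells 4 of 13 rose, led by Rgs1 at 1923 and 1825 against 546.7 and 551.9 CPM (1.87, SE 0.09), and Itch, the ubiquitin ligase that directs CXCR4 to degradation, fell (-0.54, SE 0.08, intron trend -0.77). Rgs1 was also called in fibroblast-like (2 higher and 2 lower of 10), endothelial-like (3 and 2 of 13) and mural-like cells (2 and 0 of 10), where it was higher in the second deligated library (28.18 against 5.692 CPM in endothelial-like cells) along with the 10 NK/innate lymphoid markers (109.6 against 18.72 CPM). The part of lymphocyte RNA in those values was not tested. Beside these counts, the shares of all genes called higher and lower were 4.72% and 14.3% in T cell-like, 16.5% and 26.6% in NK/innate lymphoid-like, 8.3% and 17.2% in fibroblast-like, 13% and 22.2% in endothelial-like and 1.2% and 5.8% in mural-like cells.

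Genes downstream of the receptor moved in both directions. In T cell-like cells 1 rose and 6 fell of 20 (median -0.03), and in NK/innate lymphoid-like cells 4 rose and 8 fell of 20 (median -0.22), beside 4.72% of all genes called higher and 14.3% lower in the first class and 16.5% and 26.6% in the second. Dock2, the activator of Rac in migrating lymphocytes, was at 234.6 and 192.6 against 839.6 and 837.7 CPM in NK/innate lymphoid-like cells (log2 -1.88, SE 0.12), and its 545.65 kb of intron gave a trend value of -2.28. Pik3r5 had the largest fall in T cell-like cells (-2.05, SE 0.24, trend -0.52), and Rassf5, which links chemokine signals to integrins, rose in both (0.63, SE 0.15 and 0.58, SE 0.10). Endothelial-like cells had 2 higher, led by Pik3cg, and 2 lower of 20, led by Rap1a, fibroblast-like cells 3 and 1 of 13, and mural-like cells 1 and 0 of 11. Of all genes, 13% were called higher and 22.2% lower in the first of these, 8.3% and 17.2% in the second and 1.2% and 5.8% in the third.

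Of 13 transcription factors linked to these genes, Klf2, Foxc1 and Sox17 rose and Ebf1 and Ebf3 fell in endothelial-like cells, where 13% of all genes were called higher and 22.2% lower. Klf2, a factor induced by flow, was at 1432 and 1395 against 1088 and 1005 CPM (log2 0.46, SE 0.10), and Foxc1, which maintains Cxcl12 in marrow stroma, at 12.21 and 11.6 against 8.681 and 8.058 CPM (0.53, SE 0.14). Ebf1 was at 629.4 and 737.0 against 1468 and 1444 CPM (-1.07, SE 0.09), with 381.02 kb of intron and a trend value of -1.27. In fibroblast-like cells 0 rose and 5 fell of 11, led by Ebf1, and in mural-like cells Klf2 rose (1 of 11), beside 8.3% of all genes higher and 17.2% lower in the first class and 1.2% and 5.8% in the second. Klf2 and Nr4a1 rose in T cell-like cells, where Nr3c1 and Foxo1 fell (2 and 2 of 10), and in NK/innate lymphoid-like cells, where Foxc1, Ebf1, Nr3c1 and Foxo1 fell (2 and 4 of 10). The shares of all genes were 4.72% higher and 14.3% lower in the T cell class and 16.5% and 26.6% in the NK/innate lymphoid class.

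Of the list genes named with values, Hspg2, Grk5, Dock2, Ebf1, Gnai2, Arrb2, Itch and Rassf5 overlap another annotated gene on GRCm38. Whether the counting used strand is not given in the sources used here, so their reads may include those of a neighbour.

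The genes most like each member were named by the Pearson correlation of log2(CPM + 1) with it over the mean levels of 7 classes, among 11939 genes, as a description. The classes of a library share its depth and free RNA. For Cxcl12 they were Palm (0.996), 2700081O15Rik (0.993), Prex2 (0.993), Col4a2 (0.993) and Plpp3 (0.992). For Cxcr4 they were Ifi206 (0.994), Smc2 (0.99), Gm32036 (0.989), AI467606 (0.983) and Twf2 (0.983). For Ackr3 they were Syne2 (0.995), Dync1i2 (0.993), Fzd4 (0.992), Dock6 (0.989) and Prdm16 (0.988).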

How the data were processed

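The files hold raw UMI counts per gene and cell barcode, deposited by the authors after filtering of barcodes. Per the file headers they were made with Cell Ranger 6.0.1 (deligated) and 7.0.0 (homeostatic), whereas the submitters' processing notes name Cell Ranger 6.0.1, Seurat and mm10. Whether intron reads were counted is not given in the sources used here. Gene positions came from GENCODE on GRCm38, where 30934 of 31053 identifiers (99.6%) matched. The depth per library was 35662241 to 53898793 UMIs.

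Cells with at least 300 genes and at most 10% mitochondrial UMIs were kept, likely doublets were scored against simulated ones and removed at 0.8% per 1000 cells (164, 563, 1098 and 1165 barcodes), and all libraries were clustered together with scanpy 1.11.5 (3000 variable genes, 30 components, 20 neighbours, Leiden resolution 1.0). Naming a cluster took 3 or more markers of a class, each found in 10% or more of the cells and 2-fold above other cells, and 6 of 30 clusters stayed unnamed. They held 146 and 282 deligated and 1344 and 1429 homeostatic cells.

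UMIs were summed per class and library, and classes with at least 50 cells in every library were tested with edgeR 4.0.16 (quasi-likelihood, TMM, filterByExpr, R 4.3.3), adjusted by Benjamini-Hochberg over every gene tested in the class, at a threshold of 0.05. Macrophage-like cells were not tested. Class differences used a class by group term with the library as a block. Alternatives were DESeq2 1.42.0 and its size factors, no filter on low counts, other cell, doublet, cluster and depth settings, removal of a trend on intron length, leaving out each library, and a replicate block. On simulated counts the fit recovered 77% of genes changed by 1 on the log2 scale in endothelial-like, 53% in fibroblast-like, 33% in mural-like, 39% in T cell-like and 86% in NK/innate lymphoid-like cells. False calls ran from 3 in mural-like to 11 in NK/innate lymphoid-like cells. The simulation gave all genes and both groups of a class a common dispersion. In the data the deligated pair differed more than the homeostatic pair, so these rates need not hold for the real fits.

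The members, gene lists and tests were chosen with earlier results of these data known, so a p only places a gene in the fit over all genes. Named were the 3 members in every tested class and in some of the others, the 5 genes most like each, and, of each list, the called genes with the largest change in each direction in fibroblast-like, endothelial-like, T cell-like and NK/innate lymphoid-like cells, and others chosen after their values were seen. Separate animals per library are not stated, so p-values measure the spread between libraries, which may be technical. Intervals and limits on counts of 0 (3 counts per library) cover counting error only.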

Additional observations from a re-analysis of the deposited data

Results flagged for a closer look

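The change of Cxcl12 differed between 2 cell classes under the same contrast. It was smaller in fibroblast-like than in endothelial-like cells by 0.76 on the log2 scale (difference -0.76, SE 0.17), by the class by group term of edgeR's quasi-likelihood fit (95% interval -1.14 to -0.38). The call was lost without homeostatic library 1 (-0.70), without homeostatic library 2 (-0.83) and with doublets kept (-0.63), and the size was -0.50 without deligated library 1.

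Cxcr4 was also present in cells of clusters that no marker list named and that no comparison used. Their deligated mean was 25.46 ± 1.93 CPM (26.83 and 24.1 CPM, 30 and 47 UMIs), against 0.7594 and 0.8735 CPM (6 and 6 UMIs) in the homeostatic libraries, whose unnamed cells are other clusters in large part. Of these clusters, cluster 22, led by Il1rl1 and Areg, held 23.64 and 26.81 CPM against 3.682 and 8.469 CPM (7, 19, 2 and 4 UMIs). Cluster 24, led by the proliferation genes Birc5, Mki67 and Top2a, held 22 and 20 UMIs (39.78 and 88.16 CPM) in the deligated libraries and 3 and 0 UMIs in the homeostatic libraries. The 10 T cell markers summed to 755.8 and 610.3 CPM in the deligated and to 101.5 and 92.88 CPM in the homeostatic unnamed cells. The difference was not tested.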

How the results depend on the processing

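Of the log2 differences recomputed under settings other than leaving out a library, 109 stayed on their side of the threshold and in their direction, 7 passed it anew, 4 fell short of it, 7 changed direction (2 of them past the threshold in the new direction) and 1 had no threshold and moved by its size. Cxcl12 in endothelial-like cells and Cxcr4 in NK/innate lymphoid-like cells kept direction and call under all of these settings. Where a result did not, the cause was not tested. With doublets kept, Cxcl12 passed in fibroblast-like (0.46) and NK/innate lymphoid-like cells (1.80), its fibroblast-like minus endothelial-like difference fell short (-0.63), its fibroblast-like minus mural-like difference turned to 0.28, Ackr3 in fibroblast-like cells turned to -2.57 and its fibroblast-like minus endothelial-like difference to -1.95, both past the threshold. Ackr3 in fibroblast-like cells also turned to -0.035 under the stricter cell filter and to -0.094 with the intron trend removed. Ackr3 in mural-like cells passed with no filter on low counts (-1.08) and with thinned sums (-1.32), and its fibroblast-like minus endothelial-like difference passed with no filter (0.79). Cxcl12 in T cell-like cells fell short with DESeq2 (1.36), Leiden resolution 2.0 (0.75) and the intron trend removed (1.14), and Cxcr4 there moved to 2.96 under the stricter cell filter. Ackr3 in NK/innate lymphoid-like cells turned to -0.020 with DESeq2. Same-numbered libraries share only a number: the correlation of their deviations was -0.05 to -0.18 in the 5 classes. With the replicate number as a block (replicate block), Ackr3 passed in endothelial-like (-0.68) and mural-like cells (-1.16) and turned to -0.094 in NK/innate lymphoid-like cells, and no other call on the members changed. Leaving out each library in turn gave these ranges. A group left with 1 library is assumed to vary like the other group, so a call there is no sign of stability. Cxcl12: endothelial-like 0.94 to 1.38, fibroblast-like 0.27 to 0.35, mural-like 0.075 to 0.82, T cell-like 0.92 to 1.98, NK/innate lymphoid-like -0.45 to 1.26 (-0.45 without deligated library 2, -0.02 without homeostatic library 2), fibroblast-like minus endothelial-like -1.05 to -0.50, fibroblast-like minus mural-like -0.43 to 0.32 (0.14 without deligated library 2, 0.32 without homeostatic library 2). Cxcr4: endothelial-like 0.86 to 1.40, NK/innate lymphoid-like 1.55 to 1.84, T cell-like 2.20 to 3.12, NK/innate lymphoid-like minus endothelial-like 0.39 to 0.72. Ackr3: endothelial-like -1.18 to -0.18, fibroblast-like 0.022 to 0.076, mural-like -1.71 to -0.53, NK/innate lymphoid-like -2.31 to 0.75 (-2.31 without deligated library 2, -0.24 without homeostatic library 2), fibroblast-like minus endothelial-like 0.34 to 1.29. Counts of called genes moved by over 1.5 times under the settings named here. Of the ranges without a library this holds for the lower end, and for the upper end only in endothelial-like cells. In fibroblast-like cells 2913 became 1880 with DESeq2, 1908 with the intron trend removed and 1196 to 4313 without a library. In endothelial-like cells 4643 became 1838 to 7797 without a library. In mural-like cells 682 became 394 with DESeq2, 1062 with no filter, 453 with thinned sums, 321 with the trend removed and 292 to 643 without a library. In T cell-like cells 1863 became 1089 with DESeq2, 860 with the trend removed and 872 to 2631 without a library, and in NK/innate lymphoid-like cells 5004 became 3207 to 5577. Removing the intron trend moved the share of calls that were higher from 32.5% to 50.9% in fibroblast-like, 37% to 50.2% in endothelial-like, 17.2% to 41.1% in mural-like, 24.7% to 46.3% in T cell-like and 38.3% to 53.4% in NK/innate lymphoid-like cells. The log2 fits under the stricter cell filter were not run for mural-like cells, and macrophage-like cells had no test. Of the shares of UMIs and of cells, 71 moved by less than the SD between libraries and 69 by more. Under the stricter cell filter the mean deligated share of Cxcr4 UMIs went from 1.988% to 6.636% in macrophage-like cells and that of Ackr3 UMIs in mural-like cells from 6.765% to 2.004% (homeostatic 2.186% to 0.2987%). Cxcr4 in the homeostatic libraries rests on 4 and 8 UMIs in T cell-like cells, which limits its fold.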
